A study of Hordeum vulgare with 12 samples.

Results

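The sequences described here carry miRNA names of bread wheat (beginning with tae-, for Triticum aestivum) and belong to the families miR9652 to miR9679, miR9772 to miR9783 and miR9863. They were looked for among the sequences counted in small RNA libraries of barley, a close relative of wheat. A sequence was taken where it carried a tae- name and its most often named family number lay in those ranges. The rule reads names alone and no measured value, but it was set with earlier results of these data known. It gave 51 of the 3258 listed sequences, in 40 families. No sequence with a tae- name belonged to miR9863.

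The libraries came from shoots and roots of 2-week-old spring barley of the cultivar Golden Promise, grown with 2 seedlings to a pot in perlite. Control plants received a medium with 28 mM NH4NO3, and nitrogen-excess plants the same medium with 280 mM. The comparison asks how miRNA levels differ under an excess of nitrogen. Control shoot, nitrogen-excess shoot, control root and nitrogen-excess root each had 3 biological replicates, 12 libraries in all. The labels do not say whether the shoot and root of one replicate number came from the same plants.

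Plant miRNAs are cut from hairpin precursors by DICER-LIKE enzymes and loaded into ARGONAUTE proteins, which they guide to mRNAs of near-perfect complementarity for cleavage or translational repression. Bases 2 to 8 are called the seed here. Some miRNAs are shared by all land plants, whereas others are known from a single lineage, and the grass-specific ones often have few known targets. Of the families searched for, miR9863 represses NLR immune receptors of the Mla group in barley, and miR9678 triggers phased siRNAs and acts in seed germination in wheat. Targets of the other families are not described here.

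Only 14 of the 51 sequences, from 13 families, had a count in any library, and 37 sequences from 27 families had none. Counts were found for 7 of the 12 families from miR9772 to miR9783 and for 6 of the 28 from miR9652 to miR9679. The share with a count, 27.5%, can be set beside 21.4% over all listed sequences, 52.9% of the 70 other sequences with a tae- name and 92.4% of the 66 other sequences with a barley (hvu-) name. A total of 100 counts or more was reached by 9 of the 51, which is 17.6%, against 5.1% of all listed sequences. The mature sequences of the 10 best counted are printed as deposited, with T in place of U, because every result turns on them. Capitals mark the seed.

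tae-miR9662b-3p: tGAACATCccagagccaccgg

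tae-miR9662a-3p: tTGAACATcccagagccaccg

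tae-miR9773: tTTGTTTTtatgttattttgtgaa

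tae-miR9774: cAAGATATtgggtatttctgtc

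tae-miR9779: cTTATGCAacgtctgaggat

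tae-miR9660-5p: tTGCGAGCaacggatgaatc

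tae-miR9777: aGCAAACAtatctgagcaca

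tae-miR9653a-3p: tTTGAGACtttggccatggcc

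tae-miR9778: tGCATCATctcgaactcgtcg

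tae-miR9675-3p: tTTATGATcactctcgttttg

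The miR9662 forms shared a run of 20 nt and were offset by 1 base: miR9662a-3p starts 1 base further upstream and miR9662b-3p ends 1 base further downstream, so that their seeds differ. No other listed sequence with a count shared a seed with any of the 14. Of the 14 counted sequences, 7 were 21 nt, the usual length of plant miRNAs, 4 were 20 nt, 1 was 22 nt (miR9774) and 2 were 24 nt (miR9773 and miR9782). In plants 24-nt small RNAs are mostly siRNAs that direct DNA methylation. By length, 4 of 5 members of 20 nt had counts, 7 of 31 of 21 nt, and 1 of 12 of 22 nt, while among all listed sequences the shares were 19.8%, 22.1% and 22.1%. A first base of T, read as U in the RNA and preferred by ARGONAUTE1 in Arabidopsis, was present in 7 of the 14. GC content ran from 16.7% in miR9773 to 85.7% in tae-miR9780.

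Families miR9674 and miR9863 appeared in barley only under names of the wild wheat relative Aegilops tauschii (ata-). The listed tae-miR9674 sequences and tae-miR9678-3p, which triggers phased siRNAs in wheat, had 0 counts in all 12 libraries. Of 14 sequences of the same families with ata- names and no tae- name, 4 had counts: ata-miR9674b-3p had 204, ata-miR9674c-3p 172, ata-miR9863a-3p 145 and ata-miR9772b-3p 5. They are not members and enter no count of members. The first 3 are printed because they are the only trace of families miR9674 and miR9863 in these libraries.

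ata-miR9674b-3p: tGAATTTGtccatagcatcag

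ata-miR9674c-3p: gGTGCTATggataaattcaac

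ata-miR9863a-3p: tGAGAAGGtagatcataatagc

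The miR9674 forms were most counted in 1 library, nitrogen-excess shoot 1, with 130 of the 204 and 106 of the 172 counts. ata-miR9863a-3p was spread more evenly, with 17, 10 and 27 counts in control shoot, 25, 3 and 4 in nitrogen-excess shoot, 8, 3 and 4 in roots of control plants, and 0, 3 and 41 in roots given excess nitrogen.

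Together the members took 370676 of 13883692 counts, or 2.67%. Library totals over the listed sequences ran from 245176 in nitrogen-excess shoot 3 to 2246495 in nitrogen-excess shoot 1, and a count of 0 in those libraries allows up to 12.2 and 1.34 CPM of listed sequences before scaling (CPM, counts scaled to a common library total; 3 counts, counting error only). The members' share was 3.64 ± 1.63% in control shoot, 3.42 ± 1.93% in nitrogen-excess shoot, 1.83 ± 1.24% in control root and 1.68 ± 0.314% in nitrogen-excess root (SD, n = 3 each). Single libraries ran from 0.628% in control root 1 to 5.28% in nitrogen-excess shoot 2, so the groups overlapped. Between 7 and 14 members were detected per library, and nitrogen-excess root 3 held all 14.

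The library labelled nitrogen-excess shoot 3 and the library labelled control root 3 stood apart from their tissues, and this touches most results. On a scale built from 156 sequences that are not members, with 0 at the mean of the shoots and 1 at the mean of the roots, 5 shoots had places from -0.374 to 0.0644 and 5 roots had places from 0.864 to 1.36. The remaining library labelled as shoot had a place of 1.07, within the roots. The remaining library labelled as root had a place of -0.188, within the shoots. The labels were kept as given. Without these libraries the members' share was 4.41 ± 1.23% in nitrogen-excess shoot and 1.19 ± 0.793% in control root (SD, n = 2 each). Library names also place the libraries in 3 runs: the first holds replicate 1 of every group, the second 7 libraries including both that stood apart, and the third nitrogen-excess root 3 alone, where run and library cannot be told apart.

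miR9662 made up 92.92% of the members' counts. Levels are CPM after TMM scaling over the 12 libraries, given for replicates 1, 2 and 3 in order. miR9662b-3p, the 8th most counted of all listed sequences, stood at 9030, 16038 and 19623 CPM in control shoot and at 8529, 37663 and 9746 CPM in nitrogen-excess shoot. In root it stood at 8855, 39593 and 9961 CPM in control and at 9680, 25420 and 6246 CPM under nitrogen excess. The 4 groups overlapped throughout, and in 3 of the 4 groups replicate 2 was far above the others.

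miR9662a-3p varied less, by 2.10 times between its lowest and highest library against 6.34 times for the b form. Its levels were 3880, 7082 and 7396 CPM in control shoot and 8130, 8063 and 5235 CPM in nitrogen-excess shoot. They were 6291, 7559 and 5361 CPM in control root and 6642, 7258 and 6012 CPM in nitrogen-excess root. The group means ran only from 6119 ± 1946 CPM in control shoot to 7143 ± 1652 CPM in nitrogen-excess shoot (SD, n = 3). Nothing in these levels separated tissue or condition.

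The balance between the forms moved from library to library rather than with the groups. The a form took 30.1%, 30.6% and 27.4% of miR9662 counts in control shoot, 48.8%, 17.6% and 35.0% in nitrogen-excess shoot, 41.5%, 16.0% and 35.0% in roots of control plants, and 40.7%, 22.2% and 49.0% in roots given excess nitrogen. The Wilson intervals at the 95% level were narrow, for example 48.4% to 49.2% in nitrogen-excess shoot 1 and 15.5% to 16.5% in control root 2, but they cover counting error only and not the spread between libraries. In the first run the share was 30.1 to 48.8% (4 libraries), in the second 16.0 to 35.0% (7 libraries), and 49.0% in the single library of the third. Whether the run or the plants moved the share was not tested.

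**Figure D1:**
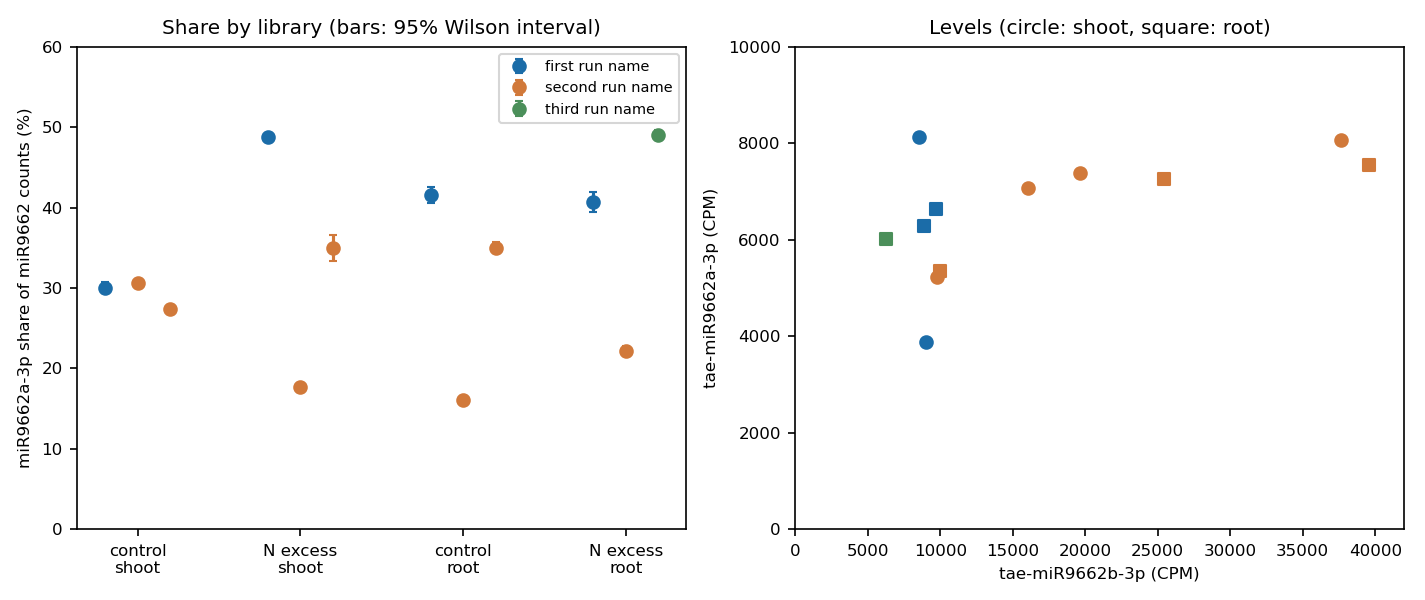
The share of miR9662 counts taken by miR9662a-3p in each library (left, percent, bars are 95% Wilson intervals, for counting error only) and the level of miR9662a-3p against miR9662b-3p (right, CPM), coloured by run name. The share spans 16.0 to 49.0% and overlaps between all 4 groups, and the a form stays between 3880 and 8130 CPM while the b form spans 6246 to 39593 CPM.

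miR9773 was higher in most shoots than in most roots. Its levels were 1636, 1170 and 902 CPM in control shoot and 1318, 337 and 228 CPM in nitrogen-excess shoot, and 259, 95.8 and 1008 CPM in control root and 285, 192 and 17.1 CPM in nitrogen-excess root. The lowest shoot value belonged to the library labelled nitrogen-excess shoot 3 and the highest root value to the library labelled control root 3, and without these 2 every shoot lay above every root. The lowest of all was nitrogen-excess root 3.

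miR9774, the only counted member of 22 nt, had high values in single libraries of both tissues. It stood at 673, 56.5 and 70.2 CPM in control shoot, 529, 370 and 59.2 CPM in nitrogen-excess shoot, 90.0, 35.9 and 856 CPM in control root, with 74.5, 49.2 and 37.2 CPM in nitrogen-excess root. The 4 highest libraries, from 370 to 856 CPM, were control shoot 1, nitrogen-excess shoots 1 and 2, and the library labelled control root 3, while the remaining 8 lay between 35.9 and 90.0 CPM.

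miR9779 ran the other way, with high values in roots. It stood at 70.6, 33.0 and 38.3 CPM in control shoot and 26.2, 53.1 and 560 CPM in nitrogen-excess shoot, against 230, 568 and 40.7 CPM in control root and 548, 171 and 1594 CPM in nitrogen-excess root. The high shoot and the low root were again the libraries that stood apart. Nitrogen-excess root 3 alone held 3637 of the 4929 counts (73.8%), and its level was 2.81 times the next highest. It had the highest level of 21 of the 165 sequences tested between tissues (12.7%), among them 1 of the 9 members tested there.

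miR9777 showed the same order at a lower level. It stood at 10.5, 9.10 and 8.32 CPM in control shoot, 4.67, 10.2 and 72.9 CPM in nitrogen-excess shoot, 46.5, 47.9 and 10.2 CPM in control root, and 10.6, 21.5 and 50.8 CPM in nitrogen-excess root. Without the libraries that stood apart, the highest shoot (10.5 CPM) lay just below the lowest root (10.6 CPM), the latter resting on 4 counts.

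miR9778 and miR9675-3p were almost confined to root libraries. miR9778 had 0 counts in each control shoot, 1, 0 and 7 in nitrogen-excess shoot, 23, 83 and 1 in roots of control plants, and 1, 49 and 104 in roots given excess nitrogen. Its 7 counts in shoot beyond a single one were all in the library labelled nitrogen-excess shoot 3. miR9675-3p had 0 counts in each control shoot, 1, 0 and 0 in nitrogen-excess shoot, 23, 10 and 0 in roots of control plants, and 5, 3 and 29 in roots given excess nitrogen. The library labelled control root 3 was the only root without it.

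miR9778 and miR9675-3p were picked because control shoot held 0 counts of each, so the limits and ratios given here are descriptions only. Against a floor of 3 counts over the 3 control shoot libraries, control root held at least 39-fold more miR9778 per count (107 against 0) and at least 12-fold more miR9675-3p (33 against 0). These limits take the root counts as exact. Both limits rested on single libraries. Without control root 2, which held 83 of the 107 counts, the limit was 13.1-fold for miR9778, and without control root 1 or the library labelled control root 3 it was 58.3-fold and 47.7-fold. Without control root 1, which held 23 of the 33 counts, it was 6.94-fold for miR9675-3p, and otherwise 12.6-fold or 14.8-fold. Over all 12 libraries the pooled root to shoot ratio was 33.4 for miR9778 (95% exact counting interval 16.7 to 78.2, 261 against 8 counts) and 71.7 for miR9675-3p (12.5 to 2870, 70 against 1). Without the libraries that stood apart the ratio was 284 for miR9778 (50.6 to 11300, 260 against 1) and 76.5 for miR9675-3p (13.3 to 3070, 70 against 1). These intervals cover counting error only, not the spread between plants.

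miR9660-5p stayed at a low and similar level in every group, at 41.3 ± 5.59 CPM in control shoot, 47.0 ± 34.3 CPM in nitrogen-excess shoot, 39.0 ± 16.0 CPM in control root and 41.9 ± 24.8 CPM in nitrogen-excess root (SD, n = 3 each). Its extremes were 13.3 CPM in nitrogen-excess root 1, from 5 counts, and 86.6 CPM in the library labelled nitrogen-excess shoot 3, from 19 counts.

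miR9653a-3p had 290 counts, of which 273 (94.1%) were in nitrogen-excess root 3. The other libraries held 3, 0 and 0 counts in control shoot, 4, 0 and 0 in nitrogen-excess shoot, 6, 1 and 0 in roots of control plants, and 0 and 3 in nitrogen-excess roots 1 and 2. At 120 CPM, nitrogen-excess root 3 stood 12.9 times above the next highest, so the group mean of nitrogen-excess root was set by 1 library. The remaining 4 counted members, tae-miR9780, tae-miR9668-5p, tae-miR9782 and tae-miR9652-3p, had 10, 9, 6 and 1 counts in all, and the single count of tae-miR9652-3p was in nitrogen-excess root 3.

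**Figure D2:**
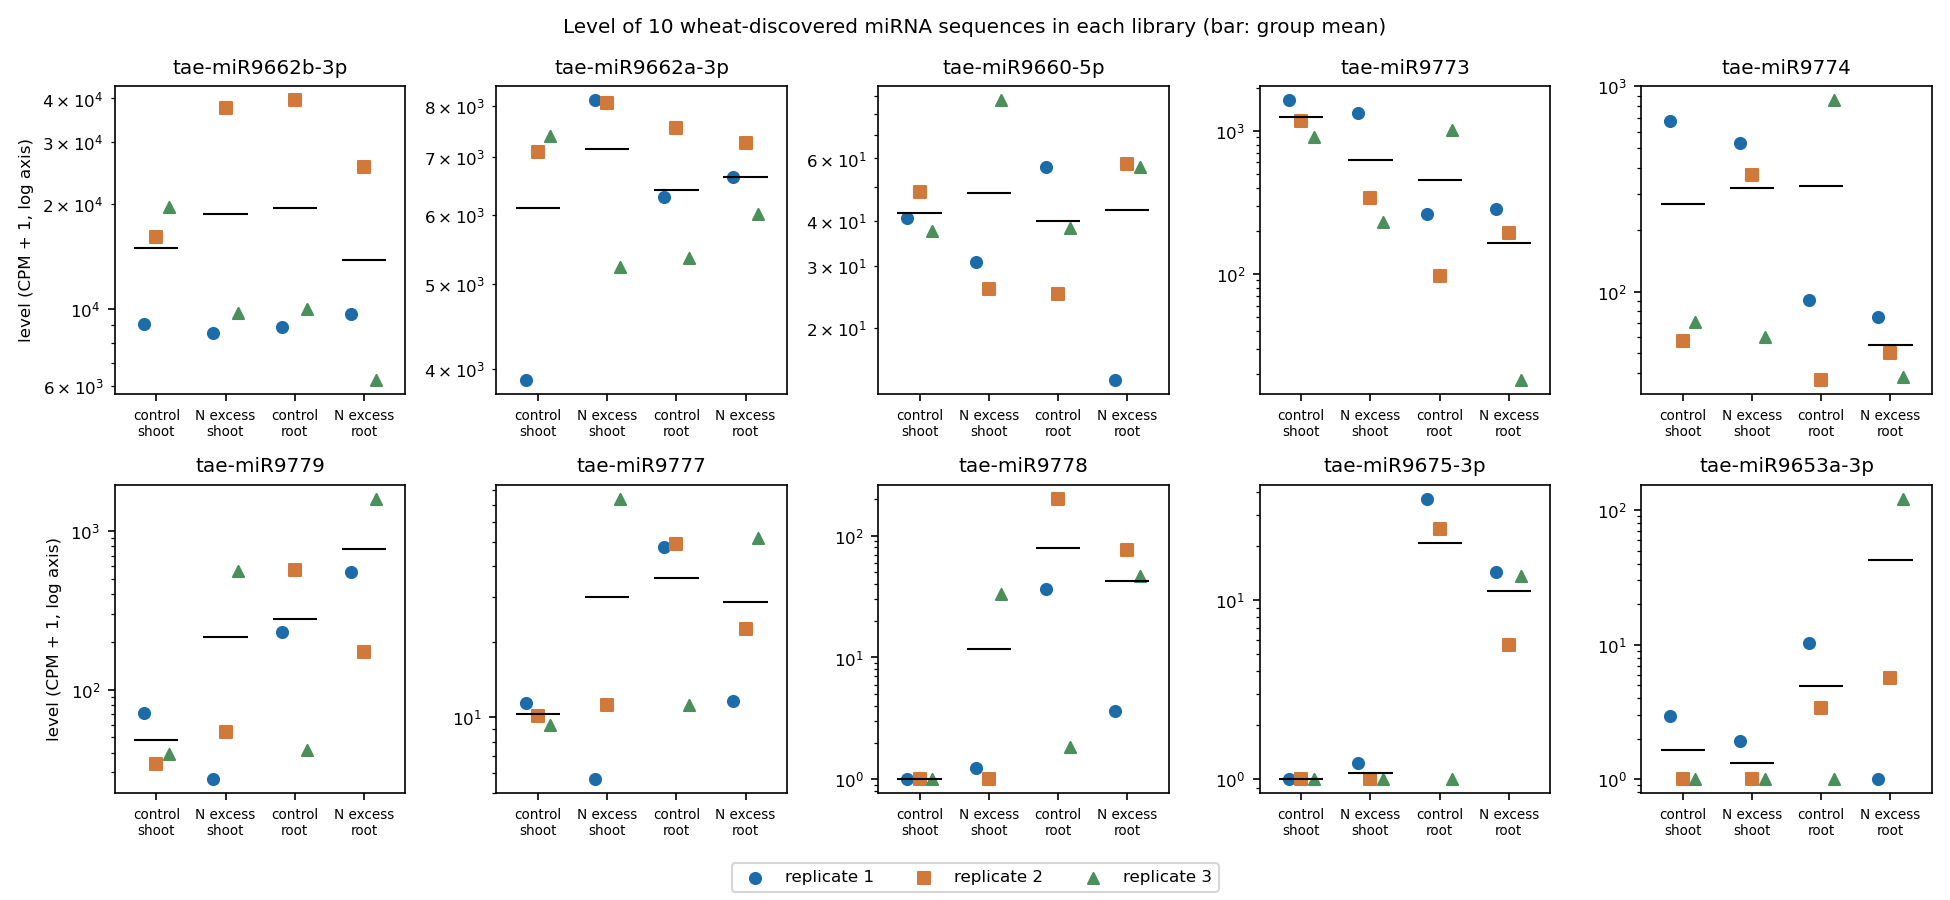
Levels of the 10 best counted members in each of the 12 libraries (CPM plus 1, log axis, a separate range in each panel), by group and replicate, with a bar at the group mean. miR9662 and miR9660-5p overlap between all groups, miR9779, miR9777 and miR9778 are high in the library labelled nitrogen-excess shoot 3 and low in the library labelled control root 3, and miR9653a-3p is high in nitrogen-excess root 3 alone.

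Under nitrogen excess, no member changed past the test in either tissue. In shoot 7 members passed the filter on low counts, and 0 were called by edgeR's quasi-likelihood test at an adjusted p below 0.05 (Benjamini-Hochberg). Of all 148 sequences tested, 0.0% were called. At an unadjusted p below 0.05 there were 0 members against 10.1% of all, with DESeq2 0 members against 5.41%, and 0 members had groups that did not overlap against 14.9% of all (9.46% higher, 5.41% lower). The members' median log2 fold change was 0.18 and that of all tested sequences -0.07.

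The largest shoot difference among the members was that of miR9779, with a log2 fold change of 1.91 ± 1.01 (SE) and an adjusted p of 0.443 in edgeR. It rested on the library labelled nitrogen-excess shoot 3: without it the value was -0.30. miR9777 stood at 1.22 ± 0.96 and turned to -0.46 without the same library. miR9773 stood at -1.06 ± 0.90 (adjusted p = 0.665 in edgeR), at -0.64 without that library, and at -2.25 without nitrogen-excess shoot 1. The other values were 0.32 ± 1.03 for miR9774, 0.18 ± 0.77 for miR9662b-3p, 0.05 ± 0.74 for miR9662a-3p and -0.08 ± 0.78 for miR9660-5p.

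In root 9 members passed the filter, and 0 were called in edgeR against 0.0% of the 146 sequences tested. At an unadjusted p below 0.05 the count was 0 members against 0.685% of all, with DESeq2 0 of the 8 members given an adjusted p against 0.0%, and 0 members had groups that did not overlap against 8.22% (5.48% higher, 2.74% lower). DESeq2 gave no adjusted p for miR9774 in root, so it could not be called there. The members' median log2 fold change was -0.49, and that of all tested sequences -0.27. miR9774 had the largest difference, at -2.64 ± 1.24 (adjusted p = 0.955 in edgeR). It rested on the library labelled control root 3, without which it was -0.24. miR9773 stood at -1.49 ± 1.20 and at -0.11 without that library.

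miR9779 stood at 1.48 ± 1.14 in root, at 0.38 without nitrogen-excess root 3, and at -1.02 in the second run alone. miR9778 stood at -0.88 ± 1.47 and turned to 1.22 without control root 2. miR9675-3p stood at -0.92 ± 1.32, and at -0.099 without control root 1. The remaining root values were -0.49 ± 0.93 for miR9662b-3p, -0.28 ± 1.01 for miR9777, 0.11 ± 0.95 for miR9660-5p and 0.05 ± 0.76 for miR9662a-3p. By adjusted p in the authors' deposited table, the authors' test called 6 sequences in shoot and 0 in root, none of them a member. In the authors' deposited table, the lowest adjusted p was 0.396 among the 7 members given one in shoot and 0.958 among the 12 in root, where miR9774 had none.

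**Figure D3:**
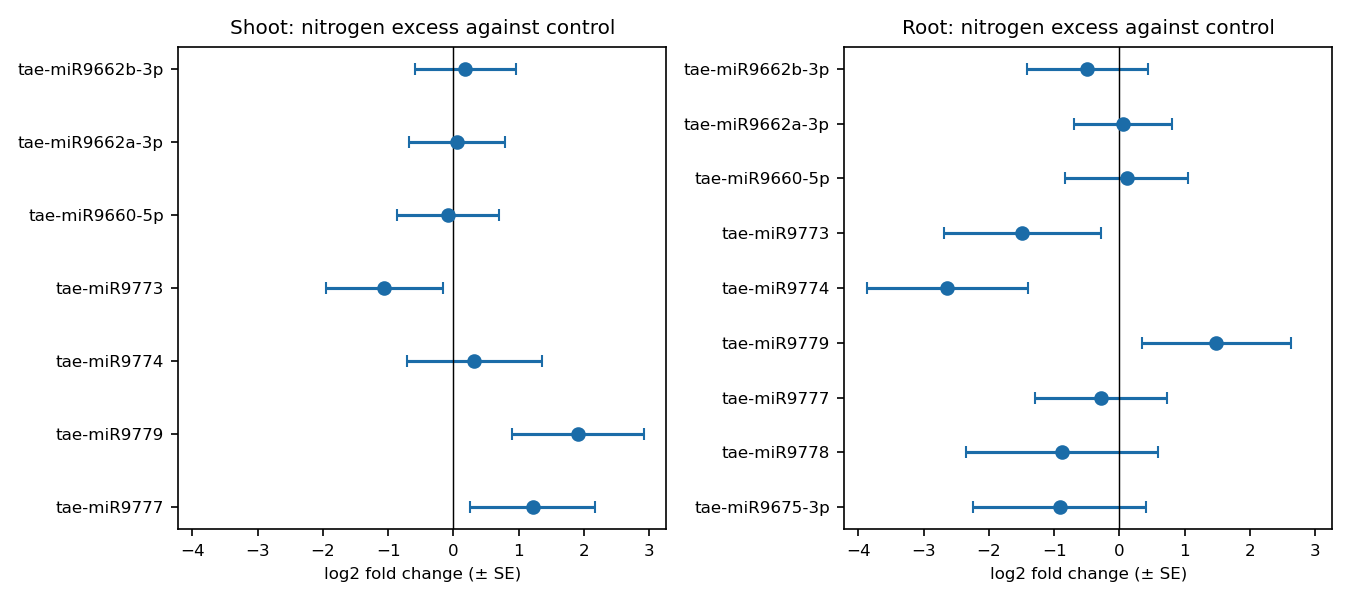
Log2 fold change of nitrogen excess over control (bars are SE from edgeR) for the 7 members tested in shoot and the 9 tested in root. The points run from -1.06 to 1.91 in shoot and from -2.64 to 1.48 in root, and none passed the threshold.

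Replicates varied widely (biological coefficient of variation 0.724 in shoot and 0.888 in root). Whether the response to nitrogen differed between tissues was tested as an interaction over the 12 libraries. Of the 9 members tested 0 were called by edgeR, against 0.0% of 177 sequences, and DESeq2 also gave 0 members against 0.0%. At an unadjusted p below 0.05 there was 1 member, miR9778 (-7.30 ± 3.09, adjusted p = 0.849 in edgeR), against 4.52% of all. That value ran from -8.14 to -2.57 when single libraries were left out, and was -3.20 without both libraries that stood apart (adjusted p = 0.924 in edgeR). Control shoot held 0 counts of miR9778, so the fitted value is no bound.

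Between tissues, miR9675-3p was higher in root. With all 12 libraries it was the only sequence called by edgeR, 1 of 165 (0.606% overall and also 0.606% in that direction, with 0.0% lower), at a log2 fold change of 6.42 ± 1.15 (SE) and an adjusted p of 0.00757. It was one of 9 members that passed the filter. Only root libraries carried it past the filter, so the filter favoured a difference in this direction. The fitted value is no bound, as all but 1 shoot library held 0 counts of it. miR9778 also passed mainly through root libraries, although the library labelled nitrogen-excess shoot 3 held 7 counts of it. With a filter of at least 20 counts in 3 libraries miR9675-3p was no longer tested, and 0 of 8 members were called against 7 of all 149 sequences. The call was also lost without nitrogen-excess shoot 1, the one shoot with a count (7.33, adjusted p = 0.118 in edgeR). In the first run alone, with 1 library per group, miR9675-3p stood at 6.03. In the second run, which holds both libraries that stood apart, it stood at 6.26.

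At an unadjusted p below 0.05 there were 4 of the 9 members against 26.1% of all sequences, and DESeq2 also called 4 against 23.0%. Both counts include miR9675-3p and miR9778, which the filter favoured, so neither says anything about the members as a group. No member's tissues separated without overlap, against 0.606% of all sequences (0.0% higher and 0.606% lower in root). DESeq2's adjusted p was 5.23e-05 for miR9675-3p, 0.00965 for miR9778, 0.0144 for miR9779 and 0.04 for miR9773. In edgeR miR9778 stood at 5.22 ± 1.84 (adjusted p = 0.105), miR9779 at 2.22 ± 0.85 (adjusted p = 0.124), miR9777 at 1.00 ± 0.77, miR9773 at -1.69 ± 0.74 (adjusted p = 0.169) and miR9774 at -1.13 ± 1.01. The members' median was -0.02 and that of all sequences 0.18.

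Without the 2 libraries that stood apart, 6 of the 9 members were called, against 29.1% of the 165 sequences. As the filter favoured miR9675-3p and miR9778 through their root libraries, the count says nothing about the members as a group. Of the other 7 members, 4 were called. These libraries were chosen for their place on other sequences between the same tissues, so this fit is not independent of that choice. The fitted values of miR9778 and miR9675-3p are no bounds, as each had 1 count over the shoots that were kept. Higher in root were 4 members (21.8% of all sequences): miR9778 at 8.76 ± 1.16 (adjusted p = 3.77e-05 in edgeR), miR9675-3p at 6.78 ± 0.88 (adjusted p = 3.71e-05), miR9779 at 3.68 ± 0.70 (adjusted p = 0.000714) and miR9777 at 2.17 ± 0.59 (adjusted p = 0.00934). Lower in root were 2 (7.27% of all): miR9773 at -2.57 ± 0.70 (adjusted p = 0.00934 in edgeR) and miR9774 at -2.58 ± 0.71 (adjusted p = 0.0102).

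In levels, miR9779 then stood at 44.3 ± 17.7 CPM in shoot and 622 ± 572 CPM in root, miR9777 at 8.54 ± 2.33 and 35.5 ± 18.2 CPM, and miR9773 at 1073 ± 489 and 170 ± 112 CPM (SD, n = 5 each). Groups did not overlap for 5 of the 9 members against 23.6% of all, 4 of them higher (17.0% of all) and 1 lower (6.67%). The 4 include miR9778 and miR9675-3p, which the filter favoured, so the count says nothing about the members as a group. They also include miR9777, which separated at only 10.5 against 10.6 CPM, the root value from 4 counts. miR9774 was called with groups that overlapped, at 340 ± 274 CPM in shoot and 57.4 ± 23.9 CPM in root. At an unadjusted p below 0.05 stood 40.0% of all sequences. The first run alone holds neither library that stood apart, but only 1 library per group. It gave -2.79 for miR9773, -3.21 for miR9774 and 2.70 for miR9779. The second run alone, which holds both, gave -1.08, 1.08 and 1.72 in the same order. Neither fit was planned.

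The miR9662 forms and miR9660-5p did not pass the test between tissues with or without these libraries. With all 12 libraries the log2 fold change was -0.02 ± 0.60 for miR9662b-3p, -0.02 ± 0.42 for miR9662a-3p and -0.09 ± 0.54 for miR9660-5p. Without the 2 libraries the values were -0.02 ± 0.59, -0.05 ± 0.39 and 0.30 ± 0.58. These values depend on the scaling, as TMM factors ran from 0.363 in control root 2 to 1.91 in nitrogen-excess shoot 1. With equal totals, that is without these factors, the 12 libraries gave -1.12, -0.867 and -0.709 in the same order. None was called there either (adjusted p = 0.22, 0.298 and 0.528 in edgeR). Equal totals was not fitted without the 2 libraries. In the shoots then left, miR9662b-3p took 1.06 to 4.28% of the counts before scaling. In the roots then left it took 0.35 to 1.44%, so the ranges overlapped.

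**Figure D4:**
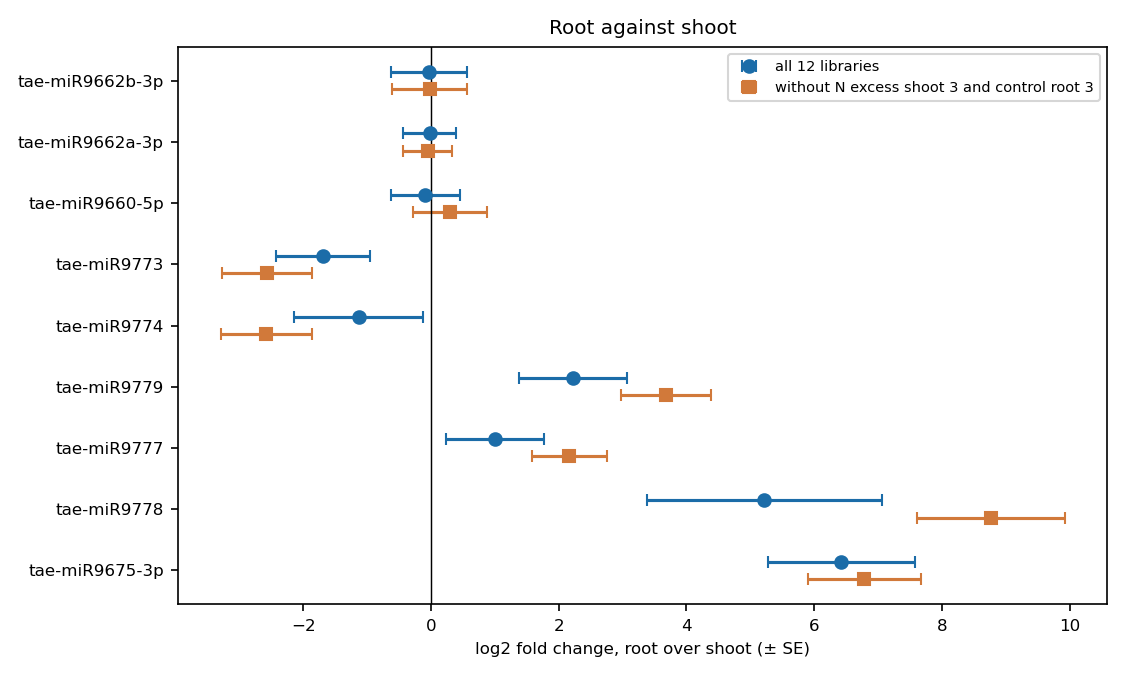
Log2 fold change of root over shoot (bars are SE from edgeR) for 9 members with all 12 libraries and without the libraries labelled nitrogen-excess shoot 3 and control root 3. miR9778, miR9675-3p, miR9779 and miR9777 lie above 0, and miR9773 and miR9774 below it. Without the 2 libraries 6 of the 9 members pass the threshold, against 29.1% of all 165 sequences. With all 12 libraries 1 member passes, against 0.606% of all. The filter favoured miR9675-3p and miR9778, so neither count says anything about the members as a group.

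Other lists are given beside the members for the tissues in that smaller set, and no difference between lists was tested. The members' calls include miR9778 and miR9675-3p, which the filter favoured, and the other lists were not examined for such sequences. Of 15 tested sequences with other tae- names 3 were higher in root and 0 lower, and of 25 with other hvu- names 7 were higher and 2 lower. Of 6 tested sequences from families that trigger phased siRNAs or act on NLR genes (miR390, miR482, miR2118, miR2275, miR5048, miR5071, miR9678 and miR9863), 0 were called in either direction. With all 12 libraries, and under nitrogen excess in either tissue, none of these 3 lists had a called sequence.

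Levels of several members were correlated across the 12 libraries. Pearson's r of log2 CPM was 0.87 between miR9777 and miR9778, 0.82 between miR9777 and miR9779, and 0.78 between miR9779 and miR9778. For miR9675-3p it was 0.73 with miR9778, 0.72 with miR9779 and 0.58 with miR9777, the last moving to 0.84 without the libraries that stood apart. It was -0.88 between miR9779 and miR9773 and 0.66 between miR9774 and miR9773. The points share tissue, run and library depth, and r is a description only. Of sequences outside the group, hvu-miR6179 was most like miR9777 (0.92) and miR9778 (0.96), mtr-miR319d-3p most like miR9779 (0.94), sbi-miR160f most like miR9773 (0.97), hvu-miR5049a most like miR9774 (0.75) and hvu-miR5049b most like miR9660-5p (0.92). miR9662b-3p was most like zma-miR159a-5p (0.92) and miR9675-3p most like osa-miR5083 (0.92), whereas for miR9662a-3p no sequence passed 0.59 (ata-miR169i-3p).

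**Figure D5:**
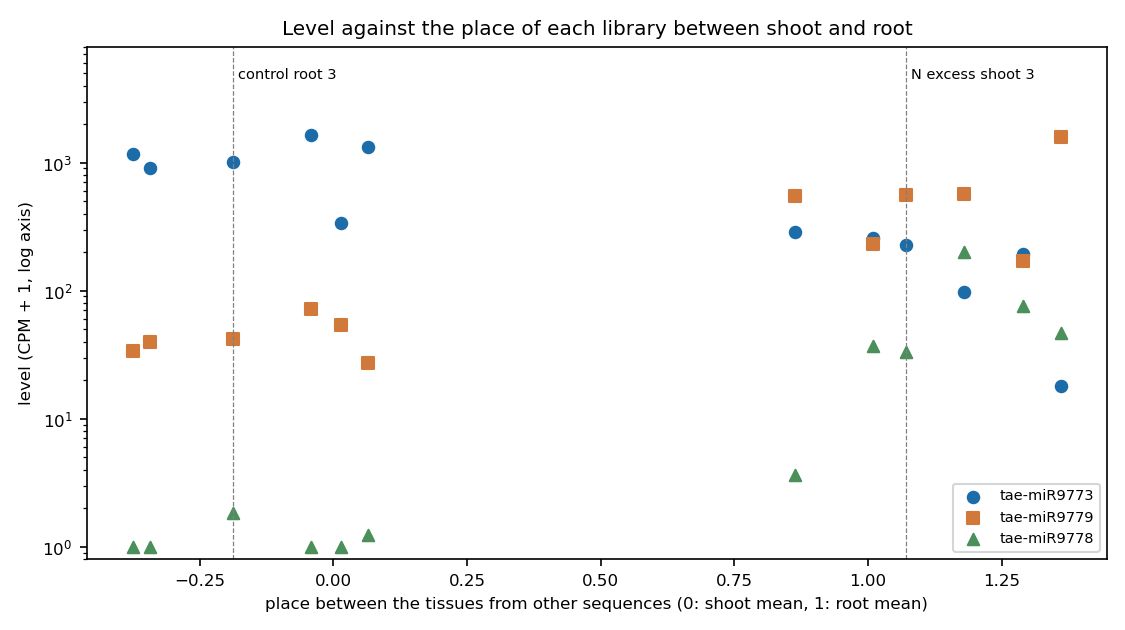
Levels of miR9773, miR9779 and miR9778 (CPM plus 1, log axis) against the place of each library between the tissues, computed from 156 other sequences (0 is the shoot mean, 1 the root mean). The library labelled control root 3, at -0.188, has levels like the shoots (1008, 40.7 and 0.849 CPM), and the library labelled nitrogen-excess shoot 3, at 1.07, has levels like the roots (228, 560 and 31.9 CPM).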

How the data were processed

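The authors' deposited tables, one per tissue, hold raw counts for 3258 sequences of 17 to 28 nt. Further columns, per the file headers, hold a signal (each count divided by a factor per library), the authors' log2 fold change and their p-value and adjusted p-value. The submitters' processing notes name DESeq2. Trimming, counting and mismatch settings were not given in the sources used here. Libraries were made with a TruSeq small RNA kit, per the labels' protocols. Totals cover listed sequences only and are not sequencing depth.

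The raw counts were fitted over all listed sequences with edgeR 4.0.16 in R 4.3.3: TMM scaling, the quasi-likelihood test, and filterByExpr with a minimum total of 15 and a minimum count of 10. Sequences were called at an adjusted p below 0.05. Each tissue was fitted with condition as the term. Root against shoot had condition as a covariate, and the interaction was fitted over 12 libraries. Standard errors come from the fold change and F statistic. Correlations used log2 CPM with a prior count of 2. DESeq2 1.42.0 was an alternative.

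The members and lists were chosen with earlier results of these data known. Members with a total of at least 100 counts get values in every library, as does miR9675-3p, the one sequence called. p-values measure the spread between these libraries.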

Additional observations from a re-analysis of the deposited data

Results flagged for a closer look

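Each of the 9 members tested between tissues was examined in the 6 libraries of each tissue for a highest or lowest library far from the rest (Dixon's gap ratio above its 95% critical value). Of 18 such groups 5 met it, where chance gives about 0.9 on average. The groups share libraries and several members are correlated, so the 5 are not independent, and an excess was not tested. In shoot the library labelled nitrogen-excess shoot 3 was far above the other 5 for 3 members. miR9779 stood at 560 CPM there against 26.2 to 70.6 CPM, miR9777 at 72.9 CPM against 4.67 to 10.5 CPM, and miR9778 at 31.9 CPM against 0 to 0.234 CPM. In root the library labelled control root 3 held 856 CPM of miR9774 against 35.9 to 90.0 CPM in the others. In shoot miR9675-3p met the limit in nitrogen-excess shoot 1 at 0.2 CPM, which is a single count where the other 5 libraries had 0.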

How the results depend on the processing

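Values are log2 fold changes, or sequences called. In shoot 0 were called, 8 with no filter or DESeq2, 3 with the replicate block, and 0 to 2 leaving out single libraries. Between tissues 1 was called, 45 with no filter, 7 with at least 20 counts in 3 libraries (where miR9675-3p was no longer tested and 0 members were called), 38 with DESeq2, 2 with the replicate block, 3 with run as a term, 29 in the first run alone, 0 in the second, 0 in control or nitrogen-excess plants alone, and 48 without both libraries that stood apart. Leaving out single libraries gave 0 to 38: 0 without nitrogen-excess shoot 1, 38 without the library labelled nitrogen-excess shoot 3, 34 without the library labelled control root 3, 17 without nitrogen-excess root 1, and 1 or 2 otherwise. Root and interaction counts stayed at 0 in every alternative. A minimum of 100 counts left 9 counted members.

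Signs turned only for members not called at first. In shoot miR9660-5p was 0.024 with DESeq2 size factors, 0.013 with DESeq2 and 0.007 in the second run alone. miR9662a-3p was -0.016 with equal totals and -0.367 in the second run, and miR9662b-3p -0.098 with equal totals and -0.099 with the replicate block. In root miR9660-5p was -0.21 and miR9662b-3p 0.082 with run as a term, which absorbs nitrogen-excess root 3. miR9662a-3p was -0.03 with DESeq2 size factors or DESeq2, -0.003 with at least 20 counts and -0.077 in the second run. Equal totals gave 0.416 for miR9675-3p, 0.78 for miR9777 and 0.244 for miR9778, and the second run, with 1 nitrogen-excess root, -1.02 for miR9779. Between tissues miR9660-5p was 0.302 without both libraries. Run as a term gave 0.038 for miR9662a-3p and 0.218 for miR9662b-3p. Control plants alone gave 0.13 for miR9662b-3p and 0.213 for miR9774, and the second run 0.012 and 1.08. Equal totals moved the median of all sequences between tissues from 0.18 to -0.52. The cause of these turns was not tested.

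Leaving out single libraries, ranges that crossed 0 were, in shoot, -0.678 to 0.255 for miR9660-5p, -0.245 to 0.372 for miR9662a-3p, -0.813 to 0.528 for miR9662b-3p, -0.241 to 2.15 for miR9774, -0.459 to 1.8 for miR9777 and -0.298 to 2.44 for miR9779. In root they were -0.152 to 0.466 for miR9660-5p, -0.048 to 0.178 for miR9662a-3p, -1.28 to 0.536 for miR9662b-3p, -1.08 to 0.089 for miR9777 and -1.61 to 1.22 for miR9778. Between tissues they were -0.226 to 0.083 for miR9660-5p, -0.225 to 0.04 for miR9662a-3p and -0.755 to 0.478 for miR9662b-3p.

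The replicate numbers were not taken to pair the samples, since not every pair correlated above 0.1 in either nitrogen comparison or, over both conditions, between tissues. Deviations of same-numbered control and nitrogen-excess libraries correlated at 0.49, 0.10 and 0.08 in shoot and 0.15, 0.47 and -0.22 in root. Same-numbered shoot and root libraries correlated at 0.50, -0.04 and 0.09 in control plants and at 0.47, 0.24 and 0.36 in nitrogen-excess plants. Between control and nitrogen-excess libraries, 2 of 6 libraries in each tissue correlated best with their own number. In nitrogen-excess shoot and control root the group mean includes a library that stood apart, so these correlations cannot decide whether plants were paired. With the replicate block, miR9675-3p stood at 6.72 between tissues (adjusted p = 0.0124 in edgeR). Members under about 10 counts are limited by depth.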
